A study of Mus musculus with 21 samples.

Results

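The comparison set stenotic aortic valves of XCT790-treated mice against stenotic valves of solvent-treated mice, with 3 RNA-seq libraries in each group out of 21 libraries in the series. Members were chosen by their titles. All mice were generation 2 of a Terc-/- line, which lacks the RNA template of telomerase. Telomere length is not part of these data. The mice of both groups were also heterozygous for Notch1 (Notch1 +/-, called N1het). The first group (XCT790 stenosis, n = 3) received daily intraperitoneal XCT790 at 5 mg/kg/day for 4 weeks, starting at 4 weeks of age. The second (solvent stenosis, n = 3) received the solvent alone on the same schedule. Healthy N1het valves after XCT790 (n = 5) or solvent (n = 6) and healthy valves of solvent-treated mice of the same Terc-/- generation with both copies of Notch1 (WT, n = 4) gave the context. The Notch1 +/- and Terc-/- genotypes were present in every cell of the animal, so the model does not separate valve cells from blood or heart cells.

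Stenosis is a narrowing of the valve opening by thickened, stiff or calcified leaflets. Notch1 encodes a receptor that is cut after binding ligands on neighbouring cells, so that its inner domain can enter the nucleus and act on transcription. Inactive NOTCH1 alleles cause calcified aortic valves in people. XCT790 is an inverse agonist of ERRα, an orphan nuclear receptor encoded by Esrra. ERRα works with the coactivator PGC-1α on genes of the tricarboxylic acid (TCA) cycle, fatty acid oxidation and oxidative phosphorylation. It binds an extended half-site, AAGGTCA, usually preceded by the letters TC.

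One label field goes against the groups. The agent field of all 3 solvent stenosis libraries reads XCT790, while their titles and descriptions say solvent, and the column names of the deposited table follow the titles. By the agent field the groups would not differ in treatment. The groups used here follow the titles, and every direction below rests on them. Whether the libraries came from separate animals is not in the labels. The p-values then reflect variation among samples, which may be technical.

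ERRα half-sites were looked up in RefSeq promoter windows (GRCm38.p6, 250 bases before to 50 after each gene start), because they show what the target of the compound binds. AAGGTCA, on either strand, stood in 5.38% of 27025 genes with a window. The longer TCAAGGTCA, which contains it, stood in 0.466%. Among energy genes, 5 of 30 genes for subunits of Complex II to V had AAGGTCA (16.7%), 3 of 33 for Complex I (9.09%), 2 of 18 for TCA cycle enzymes (11.1%) and 1 of 20 for fatty acid oxidation enzymes (5.0%). Sdhd counts in both the Complex II to V and the TCA cycle list. Of 19 listed ERRα targets of energy metabolism 2 had AAGGTCA (10.5%), Acadm and Ogdh, which are also counted above. Of 19 ERR, PGC-1 and PPAR regulators 1 had it (5.26%), Rxra. The windows of 3 energy genes follow, each on the strand of its gene. Capitals mark the match, which lies on the opposite strand and so reads TGACCTT, or TGACCTTGA for the longer form. Acadm encodes the medium-chain acyl-CoA dehydrogenase (chr3:153944594-153944893, minus strand). Sdhd encodes an anchor subunit of Complex II (chr9:50603800-50604099, minus strand). Atp5g3 encodes a ring subunit of ATP synthase (chr2:73911277-73911576, minus strand).
Acadm: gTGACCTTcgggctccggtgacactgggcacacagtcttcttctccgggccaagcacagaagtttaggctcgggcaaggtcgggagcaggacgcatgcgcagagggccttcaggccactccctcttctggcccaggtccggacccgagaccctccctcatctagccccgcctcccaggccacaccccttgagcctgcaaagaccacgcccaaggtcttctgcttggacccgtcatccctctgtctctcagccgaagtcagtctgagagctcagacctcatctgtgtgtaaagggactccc
Sdhd: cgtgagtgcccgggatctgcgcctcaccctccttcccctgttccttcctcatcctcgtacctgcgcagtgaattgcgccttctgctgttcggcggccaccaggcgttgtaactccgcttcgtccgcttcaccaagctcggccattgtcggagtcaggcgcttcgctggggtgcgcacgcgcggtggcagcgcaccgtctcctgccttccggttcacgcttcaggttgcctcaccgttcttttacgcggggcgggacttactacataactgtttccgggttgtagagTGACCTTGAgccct
Atp5g3: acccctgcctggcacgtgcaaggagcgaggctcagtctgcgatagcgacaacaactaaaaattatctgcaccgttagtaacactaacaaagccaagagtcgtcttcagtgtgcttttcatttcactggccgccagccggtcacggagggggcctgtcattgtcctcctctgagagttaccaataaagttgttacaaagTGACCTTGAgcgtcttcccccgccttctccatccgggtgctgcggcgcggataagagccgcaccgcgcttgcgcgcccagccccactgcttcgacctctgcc
A match describes these letters only and does not show binding.

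Acadm had 30.6, 14.2 and 14.7 FPKM (fragments per kilobase of gene and megaread) in the XCT790 stenosis libraries, against 8.76, 41.6 and 10.4 FPKM in the solvent stenosis libraries. Sdhd had 71.9, 29.2 and 52.1 FPKM after XCT790, against 61.1, 86.2 and 66.0 FPKM after solvent. Atp5g3 had 91.3, 52.6 and 71.4 FPKM after XCT790, against 62.5, 94.8 and 78.2 FPKM after solvent. The groups overlapped for all 3 genes. Their log2 differences, XCT790 minus solvent on the log2(FPKM + 1) scale, were 0.22 ± 0.55 for Acadm, -0.55 ± 0.45 for Sdhd and -0.14 ± 0.47 for Atp5g3 (standard error, SE), with a limma adjusted p of 1.0 each. Of the 11 energy and regulator genes with AAGGTCA in the window, 7 had higher and 4 lower values after XCT790. Over all genes tested 57.6% had higher values, so nothing is read from this count.

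The XCT790 stenosis libraries held 15.5, 17.7 and 9.8 M reads (megareads), against 15.1, 8.9 and 9.1 M in the solvent stenosis libraries. All 21 libraries held 8.4 to 27.3 M. Mitochondrially encoded genes took 1.88%, 0.33% and 3.97% of reads after XCT790, against 1.45%, 6.03% and 4.3% after solvent. Valve interstitial cell and fibroblast markers had like sums in all 6 libraries. The sums were 8910, 10200 and 9970 FPKM after XCT790, against 9580, 8880 and 9950 FPKM after solvent. Decorin (Dcn), a large part of them, had 2830, 3500 and 2910 FPKM after XCT790, against 3120, 2580 and 3140 FPKM after solvent. Log2 differences of the 22 tested members ran from -0.67 to 1.05, so the like sums do not hold for each marker. Several libraries also carried markers of tissue around the leaflet. Heart muscle markers summed to 2820, 418 and 238 FPKM after XCT790, against 147, 6310 and 488 FPKM after solvent, so each group held 1 library rich in them. XCT790 library 1 alone of the 6 was high in mesothelial-type genes. Upk3b stood at 459 FPKM in it against at most 0.113 FPKM in the other 5, and Msln at 120 FPKM against at most 0.214 FPKM. The same library had the highest smooth muscle sum (2340 FPKM, against 283 to 951 FPKM in the other 5) and the lowest macrophage sum (2550 FPKM, against 4890 to 10600 FPKM). The part of these tissues in the gene differences was not tested, and results that rest on XCT790 library 1 are given with and without it.

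**Figure D1:**
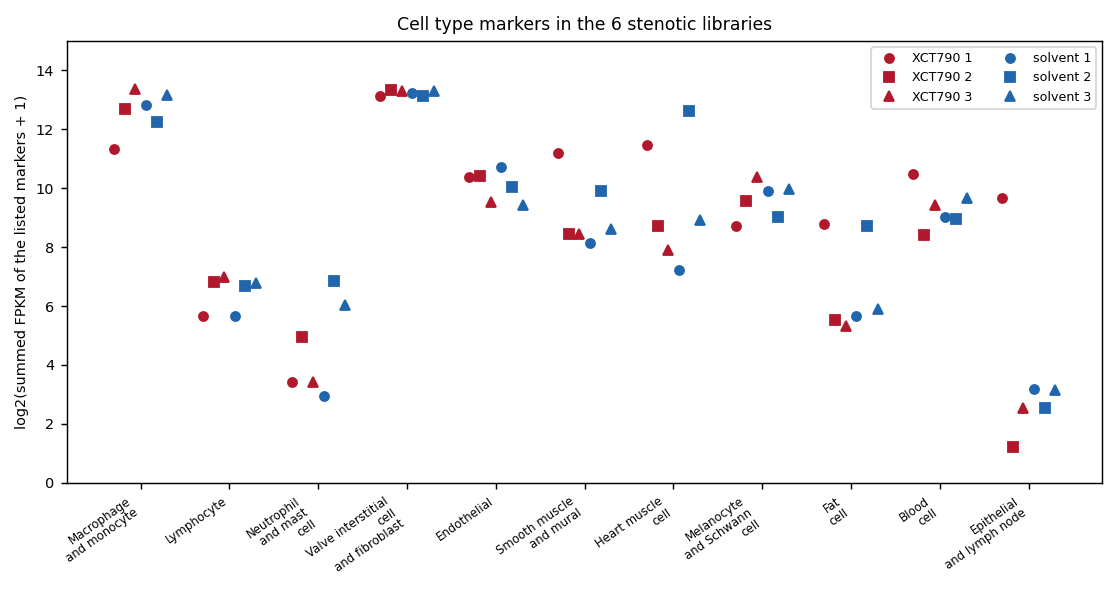
Summed FPKM of 11 cell type marker lists, as log2(sum + 1), in each of the 6 stenotic libraries, XCT790 in red and solvent in blue, with one marker shape per library number. Fibroblast markers sit at one level, while XCT790 1 and solvent 2 stand high in heart muscle markers and XCT790 1 alone stands high in epithelial and mesothelial markers (801 FPKM, against 1.35 to 8.08 FPKM in the other 5).

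With 3 against 3 libraries no gene passed the test between XCT790 and solvent in stenotic valves. Of 14966 genes tested by limma, 0 were called at a Benjamini-Hochberg adjusted p under 0.05 (0%), and the smallest adjusted p was 0.765. At an unadjusted p under 0.05 there were 501 genes (3.35%), 379 higher after XCT790 (2.53%) and 122 lower (0.815%). The 3 XCT790 libraries lay apart from the 3 solvent libraries for 1309 genes (8.75%), 911 higher (6.09%) and 398 lower (2.66%). Log2 differences were above 0 for 57.6% of genes, with a median of 0.09 that dropped to 0.02 after median-of-ratios scaling. The voom model on recovered reads made 0 calls as well, and 380 genes reached an unadjusted p under 0.05 there. With quality weights for the libraries voom also made 0 calls, and 729 genes reached that p. Leaving out single libraries called 1 gene without XCT790 library 1 (AC097273.3), 2 without XCT790 library 3 (mmu-mir-32 and AL589742.1) and 1 without solvent library 1 (S100a9).

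The p-values show the same. In an even spread each bin of 0.05 would hold 748.3 genes, and the lowest bin held 501 for XCT790 against solvent in stenotic valves. For stenotic against healthy N1het valves, both with solvent, the lowest bin held 1437 genes (9.6%) and 5 were called (0.0334%). These 5 were Coch, Shisa2, Rara, Isg20l2 and Nppb. The median SE of a log2 difference in the XCT790 comparison was 0.55. In simulated data with the mean levels of the 14966 genes and the depths of the libraries, the test of this comparison called 2.99% of 67 genes changed 2-fold. It called 26.9% of 67 changed 4-fold, 50% of 66 changed 8-fold, and 4 unchanged genes. Each gene was drawn independently, with 1 spread per gene from all 21 libraries. Tissue differences that move many genes together were not simulated, so these shares need not hold for the real libraries.

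**Figure D2:**
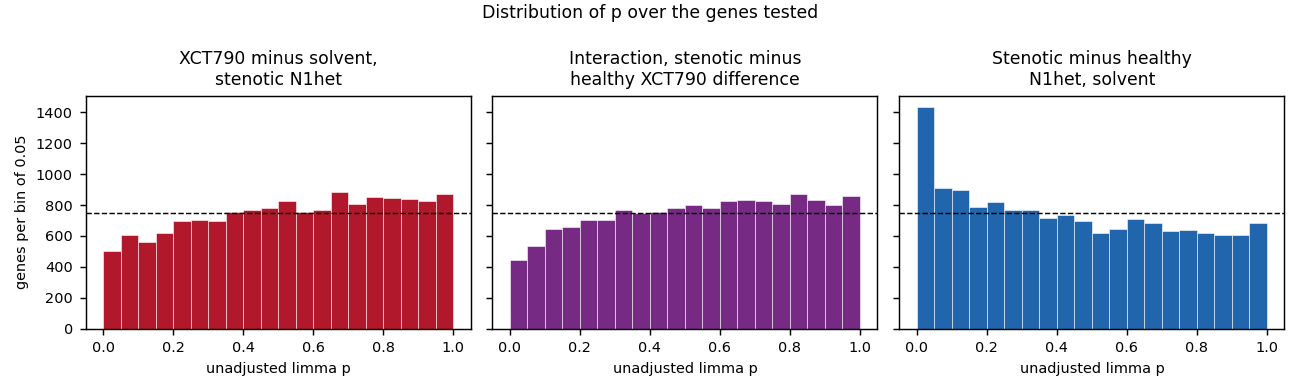
Genes per bin of 0.05 in the unadjusted limma p (x axis) for XCT790 minus solvent in stenotic valves, for its difference from the same contrast in healthy N1het valves, and for stenotic minus healthy valves with solvent; the dashed line is an even share. The lowest bin lies below the line in the first pair of panels (501 and 446 genes) and above it in the last (1437 genes).

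No gene was called, and those of smallest p with higher values after XCT790 are described first. Rara (ENSMUSG00000037992), the retinoic acid receptor α, had 25.9, 20.1 and 20.8 FPKM in the XCT790 stenosis libraries, against 7.84, 8.79 and 7.98 FPKM in the solvent stenosis libraries. Pcgf2 (ENSMUSG00000018537), a Polycomb ring finger protein, had 15.4, 13.7 and 12.9 FPKM after XCT790, against 5.3, 2.19 and 0.891 FPKM after solvent. For both the lowest XCT790 library was above the highest solvent library. Peg3 (ENSMUSG00000002265), an imprinted zinc finger gene, had 17.4, 12.6 and 6.87 FPKM after XCT790, against 2.94, 4.63 and 3.9 FPKM after solvent. Rbm10 (ENSMUSG00000031060), a splicing regulator, had 12.6, 26.5 and 8.88 FPKM after XCT790, against 4.82, 4.18 and 2.65 FPKM after solvent. These groups did not overlap either. Log2 differences were 1.33 ± 0.28 for Rara, 2.15 ± 0.56 for Pcgf2, 1.39 ± 0.35 for Peg3 and 1.69 ± 0.38 for Rbm10 (SE). The unadjusted limma p was 8.88e-05 for Rara, and adjusted p was 0.765 for Rara and Rbm10, 0.819 for Peg3 and 0.998 for Pcgf2.

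Genes of secreted, membrane and enzyme products followed. Shisa2 (ENSMUSG00000044461), which holds back the maturation of Wnt and FGF receptors, had 5.01, 11.6 and 10.1 FPKM after XCT790, against 0.594, 1.19 and 2.51 FPKM after solvent (2.04 ± 0.46). Coch (ENSMUSG00000020953), which encodes the matrix protein cochlin, had 29.2, 26.3 and 9.99 FPKM after XCT790, against 9.7, 1.98 and 0.807 FPKM after solvent (2.43 ± 0.58). The groups stood apart for both, for Coch by a narrow margin. Isoc1 (ENSMUSG00000024601), which encodes a protein with an isochorismatase domain, had 19.7, 18.8 and 25.0 FPKM after XCT790, against 5.0, 6.91 and 5.79 FPKM after solvent (1.68 ± 0.39). Efna2, an ephrin ligand, had 3.38, 4.9 and 10.7 FPKM after XCT790, against 0.0311, 0.0529 and 0.0517 FPKM after solvent. The solvent libraries were close to 0 for Efna2. Gpr126, an adhesion receptor needed for myelination by Schwann cells, had 13.0, 4.37 and 5.53 FPKM after XCT790, against 0.844, 0.711 and 1.64 FPKM after solvent. The deubiquitinase Otud3 had 10, 2.67 and 6.9 FPKM after XCT790, against 0.0392, 1.47 and 0.0 FPKM after solvent. Cdk2ap2, which encodes a partner of the cyclin-dependent kinase Cdk2, had 25.8, 36.7 and 38.0 FPKM after XCT790, against 9.91, 4.85 and 9.22 FPKM after solvent. The lowest XCT790 library was above the highest solvent library for Gpr126, Otud3 and Cdk2ap2. The limma adjusted p was 0.765 for Shisa2, Coch and Isoc1, 0.803 for Cdk2ap2 and 1.0 for Efna2, Gpr126 and Otud3.

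**Figure D3:**
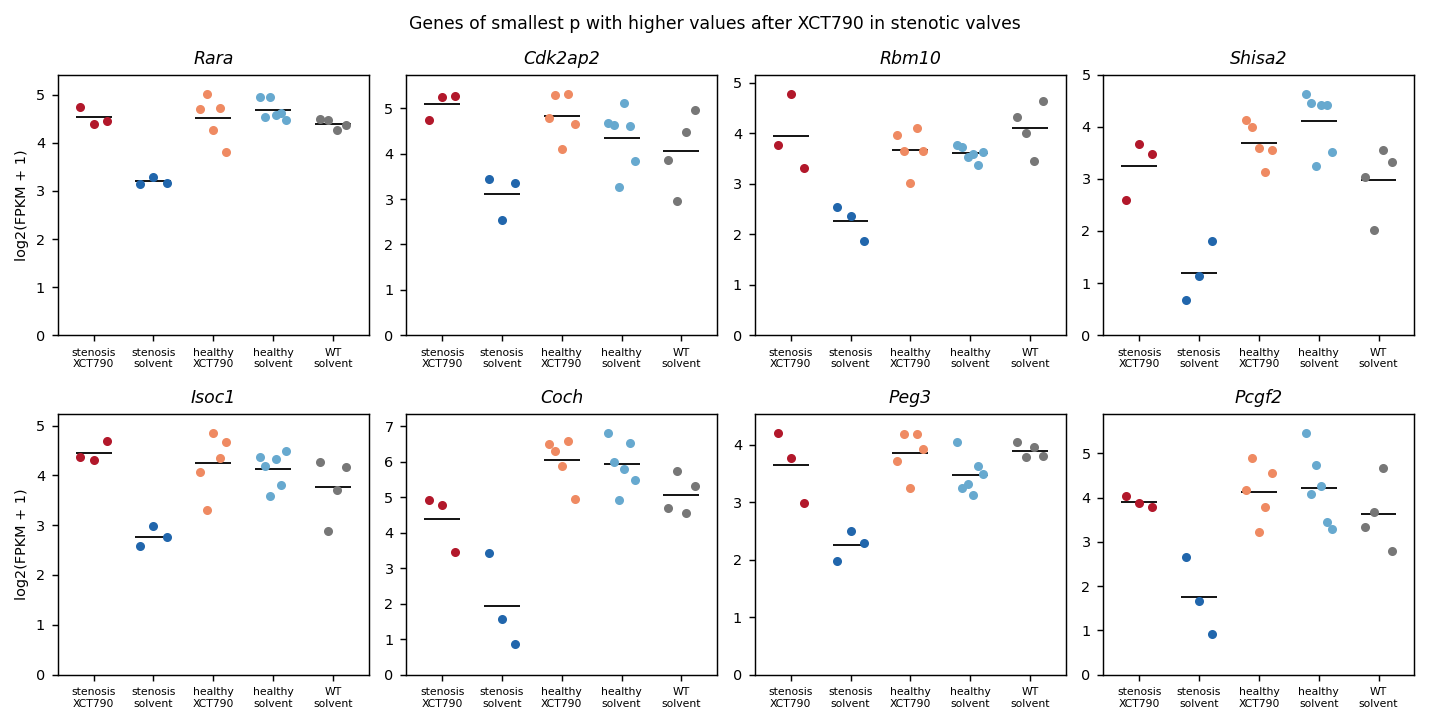
log2(FPKM + 1) of 8 genes among those of smallest p with higher values after XCT790, 1 point per library and a line at the group mean, in the 5 groups. In stenotic valves the XCT790 points lie above the solvent points in each panel, and for Rara the solvent stenosis libraries (7.84 to 8.79 FPKM) lie below every other group.

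Healthy valves show where these levels lie outside stenosis. Rara ran from 20.1 to 25.9 FPKM in the XCT790 stenosis libraries, across the levels of healthy N1het valves with solvent (21.4 to 29.9 FPKM) and WT valves (18.1 to 21.7 FPKM). Shisa2 had a median of 20.3 FPKM (8.53 to 23.8 FPKM) and Coch one of 58.8 FPKM (29.5 to 111 FPKM) in healthy N1het valves with solvent. Both medians were above the 3 XCT790 stenosis libraries, but the ranges overlapped for Shisa2. WT valves ran from 3.05 to 10.8 FPKM for Shisa2 and from 22.5 to 52 FPKM for Coch, which overlapped the XCT790 stenosis libraries for both genes. The contrast of stenotic with healthy solvent valves gave -1.49 for Rara (limma adjusted p = 0.017), -2.91 for Shisa2 (limma adjusted p = 0.00257) and -3.98 for Coch (limma adjusted p = 0.00127). That contrast uses the same 3 solvent stenosis libraries as the XCT790 contrast, so the opposite signs are not independent measurements. Rara stayed between 1.22 and 1.40 when any 1 of the 6 libraries was left out.

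Isg20l2 and Nppb also passed in the contrast of stenotic with healthy solvent valves. Isg20l2, a nuclease of ribosomal RNA processing, had 8.78, 6.62 and 4.45 FPKM after XCT790, against 4.0, 2.11 and 2.02 FPKM after solvent, in stenotic valves. Its log2 difference was 1.04 ± 0.42 (limma adjusted p = 1.0). Nppb, which encodes the B-type natriuretic peptide and is raised by wall stress in heart muscle, had 0.0, 34.6 and 2.88 FPKM after XCT790, against 11.2, 38.7 and 30.5 FPKM after solvent. The groups overlapped through XCT790 library 2, and library 1, the one rich in heart muscle markers, was listed at 0. The log2 difference of Nppb was -2.26 ± 0.84 (limma adjusted p = 1.0) and -1.08 without XCT790 library 1. In healthy N1het valves with solvent Nppb reached at most 2.2 FPKM.

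The genes of smallest p with lower values after XCT790 had varied roles, and 0 of them were called. Mfsd1 (ENSMUSG00000027775), a lysosomal membrane transporter, had 20.3, 24.8 and 19.7 FPKM after XCT790, against 64.9, 32.8 and 53.9 FPKM after solvent. Its log2 difference was -1.14 ± 0.31, and healthy N1het valves with solvent had a median of 22.8 FPKM. Rilp, which links lysosomes to dynein through Rab7, had 1.22, 0.82 and 0.0646 FPKM after XCT790, against 13.4, 7.13 and 6.19 FPKM after solvent. Rilp was the only one of the 10 genes of smallest p and lower value that had a promoter window and held AAGGTCA in it, and of the 9 in the other direction with a window 0 held it. Eef1e1, a scaffold protein of the aminoacyl-tRNA synthetase complex, had 6.51, 0.61 and 1.51 FPKM after XCT790, against 12, 14.7 and 12.4 FPKM after solvent. Oplah, the 5-oxoprolinase of the glutathione cycle, had 6.03, 5.21 and 1.85 FPKM after XCT790, against 11.7, 10.9 and 12 FPKM after solvent. The XCT790 libraries were lower than the solvent libraries throughout for these 4 genes. Scamp4, Nxnl2, Nt5dc3 and Tmem181a were in the same group with log2 differences of -4.24, -2.82, -1.42 and -1.58. Scamp4 and Nxnl2 were at 0.0 in XCT790 libraries 2 and 3. Scamp4 held at most 27 reads in any stenotic library. It ran from 0 to 31 FPKM in healthy N1het valves with solvent, and its median in WT valves was 0. The limma adjusted p of all of these was 1.0.

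Cell cycle genes lay in both directions. Tpx2, a spindle assembly factor, had 0.484, 1.18 and 2.44 FPKM after XCT790, against 2.74, 10.6 and 8.16 FPKM after solvent. Cdca3, which promotes entry into mitosis, had 0.583, 0.276 and 0.25 FPKM after XCT790, against 8.68, 1.97 and 4.84 FPKM after solvent. Cdkn3, a phosphatase of cyclin-dependent kinases, had 0.751, 1.32 and 0.0 FPKM after XCT790, against 5.6, 6.26 and 9.33 FPKM after solvent. Birc5, which encodes the mitotic protein survivin, was in the other direction, with 2.32, 1.48 and 11.6 FPKM after XCT790, against 0.817, 0.829 and 0.13 FPKM after solvent. Over the list of 30 cell cycle genes, 27 were tested, 0 were called, 9 had higher and 18 lower values after XCT790, and the median log2 difference was -0.25. Mki67, the proliferation antigen, had 7.88, 8.21 and 9.91 FPKM after XCT790, against 19.2, 17.6 and 9.88 FPKM after solvent. Without XCT790 library 1 the median of the list was 0.00. With libraries under 17 M reads only, which leaves out XCT790 library 2, it was -0.03. The macrophage marker sum of XCT790 library 1 was the lowest of the 6 (2550 FPKM), and that of XCT790 library 2 was 6530 FPKM. A link of the cell cycle list with the macrophage markers was not tested.

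S100a9, a neutrophil calcium-binding protein, had 0.0, 1.51 and 0.0 FPKM after XCT790, against 0.0, 20.3 and 31.9 FPKM after solvent. It was at 0.0 in solvent library 1 as well, so the groups overlapped. The log2 difference was -2.71 ± 0.82 (limma adjusted p = 1.0). Without solvent library 1 it was -4.28 ± 0.53 with a limma adjusted p of 0.00128. S100a9 was at 0.0 FPKM in all healthy valves with solvent, N1het and WT. The 9 tested genes of the neutrophil and mast cell list had a median log2 difference of -0.78, with 8 lower. That median was -0.12 without solvent library 2, -1.21 without solvent library 1 and 0.03 without the 7 libraries of the series that are rich in heart muscle markers, an alternative chosen after seeing the data. All 16 listed genes of the neutrophil and mast cell list, tested or not, summed to 9.82, 30.0 and 9.8 FPKM after XCT790, against 6.79, 114 and 65.0 FPKM after solvent.

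**Figure D4:**
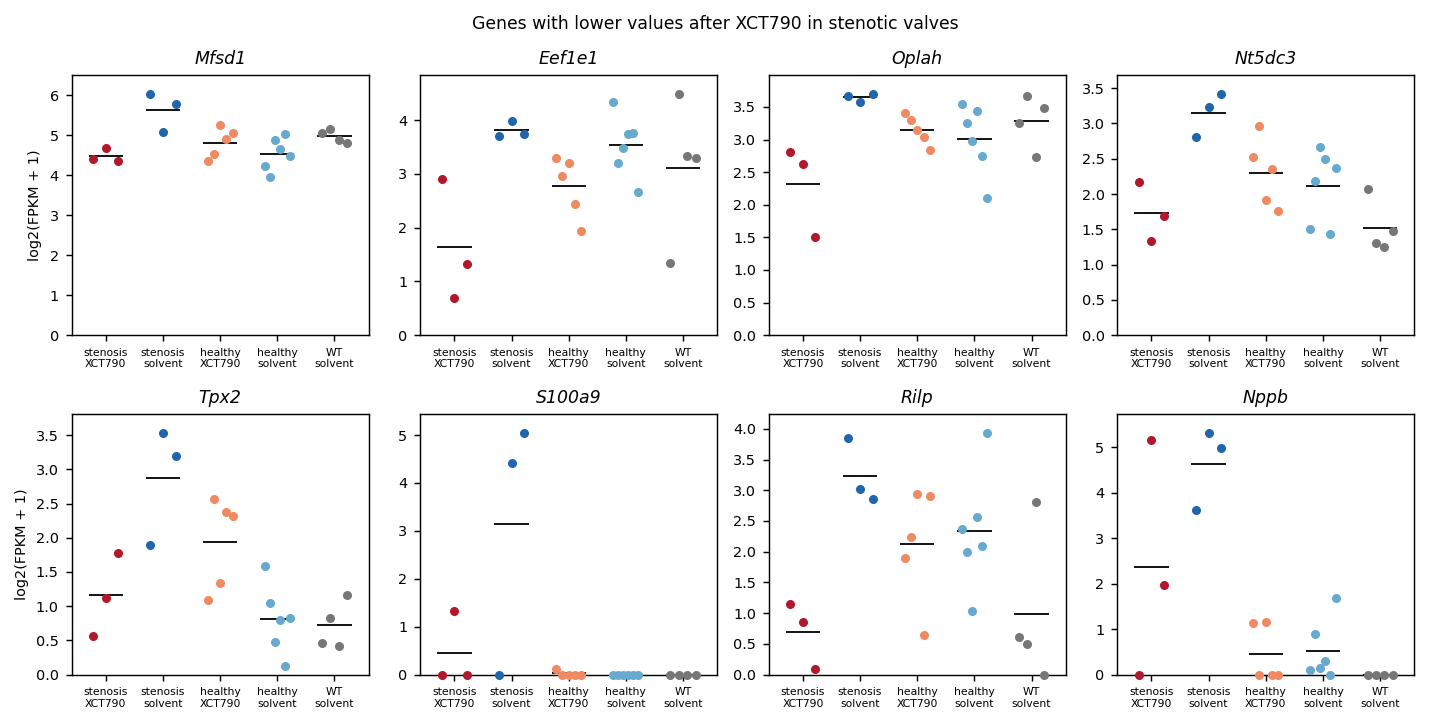
log2(FPKM + 1) of 8 genes with lower mean values after XCT790 in stenotic valves, 1 point per library and a line at the group mean, in the 5 groups. The XCT790 and solvent points of stenotic valves are apart for Mfsd1, Eef1e1, Oplah, Nt5dc3, Tpx2 and Rilp and overlap for S100a9 and Nppb.

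The target of the compound and its partners showed no called difference. Esrra had 1.98, 2.1 and 1.64 FPKM after XCT790, against 1.79, 1.73 and 0.836 FPKM after solvent, a log2 difference of 0.27 ± 0.42 (95% interval -0.61 to 1.14). The level of Esrra RNA does not measure the activity of the receptor. Ppargc1a, which encodes PGC-1α, had 5.56, 3.65 and 1.8 FPKM after XCT790, against 1.18, 11.9 and 0.669 FPKM after solvent, with its highest value in the solvent library rich in heart muscle markers. Among 19 tested ERR, PGC-1 and PPAR regulators, 15 had higher values after XCT790, where 57.6% of all genes did, and the median was 0.28. Rxrb, a retinoid X receptor, had 8.98, 19.8 and 11.8 FPKM after XCT790, against 5.5, 6.46 and 3.61 FPKM after solvent. It was the only one of the 19 at an unadjusted limma p under 0.05 (log2 difference 1.19 ± 0.53, adjusted p = 1.0).

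No listed gene that ERRα is known to drive was called. Of 24 tested ERRα targets of energy metabolism, 17 had lower values after XCT790, with a median of -0.16. Over all genes 57.6% had higher values, with a median of 0.09. The median of the targets was 0.18 without solvent library 2, the one rich in heart muscle markers, and -0.34 without solvent library 1. Mfn2, a mitochondrial fusion protein, had 17.2, 12.4 and 11 FPKM after XCT790, against 15.2, 28.9 and 16.2 FPKM after solvent. Cycs, which encodes cytochrome c, had 82.6, 45.1 and 71.2 FPKM after XCT790, against 42.4, 90.9 and 63.2 FPKM after solvent. Fabp3, a fatty acid carrier of muscle, had 112, 31.3 and 8.19 FPKM after XCT790, against 2.5, 478 and 5.66 FPKM after solvent, with the 2 high values in the libraries rich in heart muscle markers. With the heart muscle marker level as a covariate the median of the 24 targets was -0.11. Without the 7 libraries that are rich in these markers it was 0.03. The groups stood apart for 1 of the 24 (4.17%, against 8.75% of all genes), Cox5b, a subunit of Complex IV (166, 139 and 171 FPKM after XCT790, against 198, 191 and 172 FPKM after solvent).

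No respiratory chain gene was called. For Complex I, which takes electrons from NADH, 27 of 37 tested subunits had higher values after XCT790, the median was 0.12 (0.09 over all genes), and 5 stood apart, all higher (13.5% of the list, against 8.75% of all genes in either direction). Without XCT790 library 1 the median was 0.01. Ndufs8 had 119, 112 and 211 FPKM after XCT790, against 108, 62.9 and 81.9 FPKM after solvent. Ndufa2 had 179, 229 and 195 FPKM after XCT790, against 127, 172 and 138 FPKM after solvent. The other 3 were Ndufb4, Ndufa3 and Ndufv3. For Complexes II to V 27 of 42 had lower values, the median was -0.13, and 3 stood apart (7.14%), all lower: Cox4i1, Cox5b and Atp5j. Over all genes tested 57.6% had higher values. Cox4i1 had 382, 264 and 440 FPKM after XCT790, against 561, 472 and 481 FPKM after solvent. In neither list did a gene reach an unadjusted limma p under 0.05. The difference between the lists was not tested, and the median of Complexes II to V was 0.08 without XCT790 library 2. TCA cycle enzymes had a median of -0.10 and fatty acid oxidation enzymes one of -0.12, with 0 genes at an unadjusted p under 0.05 in each. Without solvent library 2, the one rich in heart muscle markers, both turned positive, to 0.12 for the TCA cycle and 0.29 for fatty acid oxidation, and without solvent library 3 they were -0.25 and -0.26. The 6 mitochondrially encoded genes in the table were all lower after XCT790 (median -1.30), and the median was -0.29 without XCT790 library 2, which held the smallest share of mitochondrial reads of the 6 (0.33%) and the most reads.

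**Figure D5:**
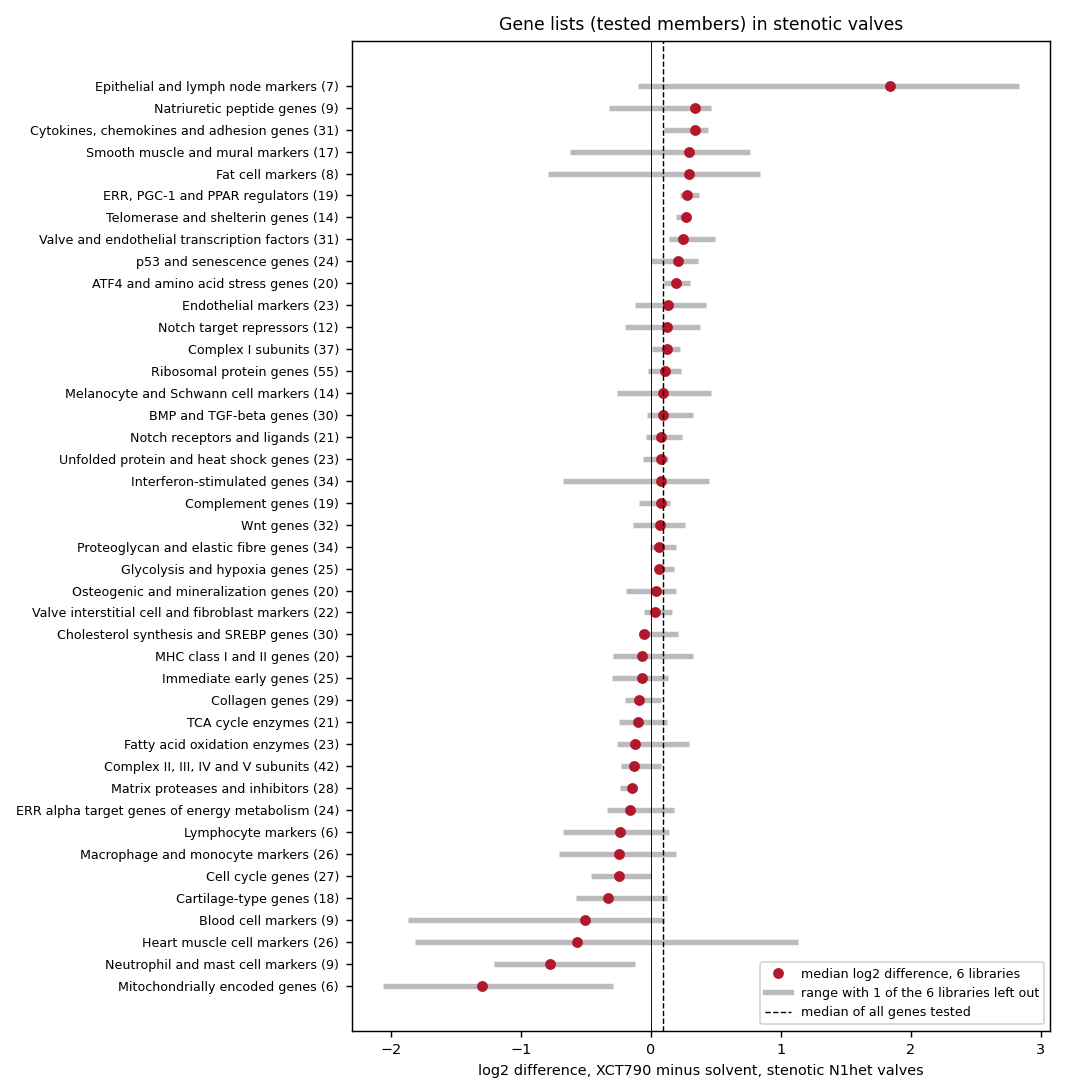
Median log2 difference, XCT790 minus solvent in stenotic valves, of 42 gene lists (red points, number of tested genes in brackets), with the range when 1 of the 6 libraries is left out (grey bars) and the median of all genes tested, 0.09 (dashed line). The ranges of the cell type lists of heart muscle, blood, fat, smooth muscle and epithelium are wide, and those of the energy lists lie near 0.

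Notch1 itself did not separate the groups, with 24.1, 35.6 and 20.9 FPKM after XCT790, against 27.0, 26.7 and 20.9 FPKM after solvent (log2 difference 0.08 ± 0.31, 95% interval -0.57 to 0.73). The healthy N1het valves with solvent (24.0 to 50 FPKM) and the WT valves (26.6 to 46.5 FPKM) overlapped in Notch1, so its RNA did not mark the genotype. Among 21 tested Notch receptors, ligands and processing genes the median was 0.08 (-0.04 without XCT790 library 2), and 2 stood apart (9.52%, near the 8.75% of all genes). Mfng, a sugar transferase that tunes Notch for its ligands, had 6.21, 6.09 and 6.12 FPKM after XCT790, against 4.31, 0.358 and 2.13 FPKM after solvent. Adam10, the protease that starts Notch cleavage, had 26.0, 24.0 and 20.4 FPKM after XCT790, against 30.1, 32.9 and 28.8 FPKM after solvent. These are the 2, in opposite directions. Of 12 tested genes of the Notch repressor list 1 stood apart (8.33%), the Hes family factor Hes6, with 3.49, 2.97 and 0.113 FPKM after XCT790, against 6.7, 3.87 and 9.75 FPKM after solvent. A place on the list does not show that Notch drives a gene, and Hes6 is not read here as a measure of Notch activity. The libraries of Hey1 and Hes1 overlapped. The repressor Hey1 had 22.5, 12.1 and 15.4 FPKM after XCT790, against 14.1, 7.83 and 3.8 FPKM after solvent, and Hes1 38.0, 23.9 and 13.3 FPKM after XCT790, against 23.6, 18.4 and 22.8 FPKM after solvent. The median of the Notch repressor list was 0.12, and was -0.20 without solvent library 3 and -0.12 without XCT790 library 1.

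No regulator or signal of valve development was called. Of 31 tested valve and endothelial transcription factors 21 had higher values after XCT790, where 57.6% of all genes did, with a median of 0.25 that stayed between 0.14 and 0.49 when 1 library was left out. Besides Rara, Twist1, a factor of valve mesenchyme, had 20.9, 20.2 and 20.4 FPKM after XCT790, against 21.9, 7.05 and 6.07 FPKM after solvent. Sox9, needed for the valve matrix, had 30.8, 48.6 and 50.4 FPKM after XCT790, against 31.8, 25.6 and 18.2 FPKM after solvent. For both, solvent library 1 lay within or above the XCT790 range. Pdgfra, the PDGF receptor α of fibroblasts, had 59.9, 52.5 and 17 FPKM after XCT790, against 22.9, 17.2 and 14.2 FPKM after solvent, and XCT790 library 3 lay within the solvent range. Gdf10, a TGF-β family ligand, had 20.7, 9.61 and 6.0 FPKM after XCT790, against 4.84, 2.69 and 0.0886 FPKM after solvent. Bmp7 and the Wnt ligand Wnt2b also had higher mean values, but their libraries overlapped, and without XCT790 library 1 the log2 difference of Wnt2b was 0.78 in place of 1.62. Over 30 BMP and TGF-β genes the median was 0.09 (-0.03 to 0.32 with 1 library left out), and over 32 Wnt genes 0.07 (-0.14 to 0.26). The limma adjusted p of each gene named here other than Rara was 1.0.

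No matrix gene was called, and the members of smallest p lay in both directions. Of 29 tested collagen genes 17 had lower values after XCT790 (median -0.09, and 0.08 without solvent library 3). Of 28 matrix proteases and inhibitors 18 were lower (median -0.15), among them Mmp19, with 5.34, 2.53 and 3.52 FPKM after XCT790, against 10.3, 10.7 and 7.12 FPKM after solvent. The groups did not overlap for Mmp19. Omd, the keratan sulfate proteoglycan osteomodulin, had 9.62, 5.51 and 6.25 FPKM after XCT790, against 0.907, 3.16 and 2.26 FPKM after solvent. Bglap2, an osteocalcin gene with near-identical neighbours that can share its reads, had 2.46, 0.48 and 0.0 FPKM after XCT790, against 2.25, 27.8 and 10.1 FPKM after solvent. Healthy N1het valves with solvent had a median of 21.7 FPKM for Bglap2. Over the 20 tested osteogenic and mineralization genes 10 were higher and 10 lower (median 0.04, -0.19 to 0.19 with 1 library left out). Has2, which makes hyaluronan, had 3.97, 7.01 and 12.5 FPKM after XCT790, against 1.05, 1.57 and 5.89 FPKM after solvent. Efemp1, a fibulin, had 270 FPKM in XCT790 library 1 and 6.32 and 24.8 FPKM in the other XCT790 libraries, against 10.4, 16.7 and 6.65 FPKM after solvent. Its log2 difference of 1.69 ± 0.77 was 0.25 without XCT790 library 1.

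The summed levels of immune cell markers overlapped between the groups. In bulk tissue, fewer cells of a type and less RNA per cell cannot be told apart. Macrophage and monocyte markers were lower after XCT790 for 24 of 26 genes (median -0.25), and the median was 0.19 without XCT790 library 1. Their summed level was 2550, 6530 and 10600 FPKM after XCT790, against 7260, 4890 and 9060 FPKM after solvent, so the groups overlapped. Lyz2, a lysozyme of macrophages that can share reads with Lyz1, had 1020, 2800 and 4590 FPKM after XCT790, against 3120, 2030 and 3420 FPKM after solvent. Cd163, a scavenger receptor of tissue macrophages, had 4.04, 4.58 and 6.72 FPKM after XCT790, against 11.5, 6.94 and 11.4 FPKM after solvent, and was the 1 of the 26 whose groups stood apart (3.85%, below the 8.75% of all genes). Of 31 cytokine, chemokine and adhesion genes 24 had higher values (median 0.34), where 57.6% of all genes did. Among them Ccl12 had 193, 235 and 451 FPKM after XCT790, against 213, 80.7 and 82.9 FPKM after solvent. Without the 7 libraries rich in heart muscle markers that median was 0.01. Interferon-stimulated genes had a median of 0.08, which was -0.68 without XCT790 library 3 and 0.45 without XCT790 library 1. MHC genes had a median of -0.07, which was 0.20 without XCT790 library 1 and 0.32 without solvent library 3. Among them H2-Ob had 1.39, 6.14 and 8.23 FPKM after XCT790, against 0.46, 0.619 and 0.564 FPKM after solvent.

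No marker of vessel or blood cells was called. Rgs5, a pericyte marker, had 109, 105 and 142 FPKM after XCT790, against 95.8, 65.2 and 59.7 FPKM after solvent. Robo4, a receptor of endothelial cells, had 16.1, 3.81 and 11.6 FPKM after XCT790, against 2.11, 5.55 and 2.2 FPKM after solvent, while Pecam1, the common endothelial marker, had 120, 194 and 93.2 FPKM after XCT790, against 302, 175 and 91.5 FPKM after solvent. The platelet gene Ppbp had 3.63, 8.26 and 16.9 FPKM after XCT790, against 20.5, 72.0 and 88.0 FPKM after solvent, and the platelet gene Gp9 3.25, 2.85 and 8.2 FPKM after XCT790, against 8.89, 25.2 and 30.0 FPKM after solvent. The groups stood apart for both, the only 2 of 9 tested blood cell markers to do so (22.2%, against 8.75% of all genes). Other platelet genes overlapped. Pf4 had 301, 304 and 652 FPKM after XCT790, against 473, 283 and 416 FPKM after solvent (log2 difference 0.03 ± 0.56). Itga2b had 1.12, 1.05 and 0.487 FPKM after XCT790, against 0.146, 4.7 and 4.14 FPKM after solvent. Haemoglobin did not follow Ppbp and Gp9 either: Hbb-b1, which can share reads with Hbb-b2, had 192, 1.12 and 0.873 FPKM after XCT790, against 5.93, 38.4 and 30.2 FPKM after solvent.

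Telomere and stress genes completed the lists. Terf1, which binds telomere repeats, had 12.3, 5.43 and 3.2 FPKM after XCT790, against 18.2, 13.3 and 27.5 FPKM after solvent. Gar1, a protein of the telomerase and snoRNA particles, had 15.2, 14.5 and 19.1 FPKM after XCT790, against 10.5, 6.58 and 6.94 FPKM after solvent. Both stood apart, in opposite directions. Of 14 tested telomerase and shelterin genes 4 stood apart, 3 higher and 1 lower (28.6%, against 8.75% of all genes). Of the 14, 10 had higher values (median 0.27), where 57.6% of all genes did. No entry for Terc was found among the genes with values, so it was not analysed here. Sesn1, a p53 target, had 24.8, 19.5 and 16.8 FPKM after XCT790, against 30.5, 35.8 and 41.9 FPKM after solvent. Cdkn1a, which encodes the cell cycle inhibitor p21, had 211, 328 and 346 FPKM after XCT790, against 421, 308 and 436 FPKM after solvent, and the p53 and senescence list had a median of 0.21. That median was 0.00 without XCT790 library 1 and -0.06 without the libraries rich in heart muscle markers. Xbp1, a factor of the unfolded protein response, had 53.4, 43.0 and 48.7 FPKM after XCT790, against 36.3, 15.9 and 37.5 FPKM after solvent. Idi1, an isomerase of cholesterol synthesis, had 3.69, 2.64 and 9.29 FPKM after XCT790, against 2.56, 0.956 and 2.0 FPKM after solvent. The limma adjusted p of each of these was 1.0.

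The XCT790 difference in stenotic valves was compared with that in healthy N1het valves by an interaction term. No gene was called (0% of 14966, smallest limma adjusted p 0.974), and 446 had an unadjusted p under 0.05 (2.98%). In healthy N1het valves alone XCT790 against solvent gave 0 calls, and 397 genes reached an unadjusted p under 0.05 (2.65%). The 5 genes of smallest interaction p were Rara, Isg20l2, Shisa2, Otud3 and Tpx2. Rara had an XCT790 log2 difference of 1.33 in stenotic valves and -0.18 in healthy valves. For Shisa2 it was 2.04 in stenotic and -0.43 in healthy valves, and for Isg20l2 1.04 in stenotic and -1.21 in healthy valves. For Otud3 it was 2.32 in stenotic and -1.08 in healthy valves, and for Tpx2 -1.72 in stenotic and 1.13 in healthy valves. The signs were opposite in all 5, which were picked for a large difference between the contrasts, so this follows in part from the choice. Their limma adjusted p for the interaction was 0.974. The 2 comparisons share no library, and the agent field of healthy XCT790 libraries 1, 2 and 3 reads solvent against their titles. At an unadjusted p under 0.05 in both, 12 genes had the same and 11 the opposite direction, 4.59% of the stenotic and 5.79% of the healthy list.

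The authors' deposited table marks 56 genes for XCT790 against solvent in stenotic valves, by a test not given in the sources used here. Of these 43 had the higher mean after XCT790 and 13 after solvent. Only 27 passed the level filter used here, 36 had 1 group wholly at 0, and 18 were above 0 in a single library. The groups stood apart for 23 of the 56, 21 higher after XCT790 and 2 lower, where 6.09% of all genes tested were apart and higher and 2.66% apart and lower. The marks come from the same contrast, so nothing is read from this. Genes marked in the authors' deposited table that were also among those of smallest p here included Rara, Rbm10, Shisa2, Isoc1, Peg3, Efna2 and Mfsd1. In the fit used here 15 of the 56 had an unadjusted limma p under 0.05 and 0 an adjusted p under 0.05.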

How the data were processed

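Per the labels' protocols, aortic valves were lysed directly, RNA was taken up with Qiagen RNeasy Micro columns, and NuGEN Ovation V2 chemistry amplified it for sequencing. Picard, SAMtools, HISAT2, FastQC and the mm9 build appear in the submitters' processing notes. The counting program, the annotation, the strand setting and all versions are not given in the sources. Overlapping or near-identical genes may therefore share reads, and no mm9 coordinates are given. The authors deposited FPKM per gene and library, with their group means and marks of changed genes, per the file headers.

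Whole reads were recovered from the steps of the FPKM values: 100% of 348565 nonzero values were whole within 0.01 reads. They gave the depth, 8.9 to 17.7 M reads in the 6 libraries, and the voom alternatives. Amplified reads are not independent molecules. Low genes carry larger errors where a library is small.

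limma 3.58.1 (R 4.3.3, statmod 1.5.0, trend and robust variances, two-sided p) was fitted on the log2(FPKM + 1) scale. A minimum mean of 1 FPKM kept 14966 genes and dropped 5906. The fit had 5 group means over all 21 libraries. The pseudocount understates differences of low genes. Adjusted p is by Benjamini and Hochberg over all genes tested, with a threshold of 0.05. An exact permutation of 3 against 3 libraries cannot go below a p of 0.1 and was not used. The test was checked on simulated data.

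The comparison, the 42 gene lists and the named genes were chosen with earlier results of these data known. Lists hold 993 genes, 966 listed and 889 tested, and are described without a test. Named genes are Notch1, Terc, Esrra, the 12 of smallest p in each direction with 5 FPKM or more in the higher group and a gene symbol that is not a model name, up to 4 members per list at an unadjusted p under 0.05, the 3 highest members of marker lists, the 5 of smallest interaction p, the genes called in stenosis earlier and marked genes of smallest p. Others were chosen after their values were seen, among them Cycs, Mfn2, Fabp3, Mki67, Sox9, Adam10 and the Complex I subunits. Alternatives covered pseudocount, filters, scaling, covariates, depth, left-out libraries, a replicate block and voom. Some genes that these rules name are not reported here. Gene functions are general background.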

Additional observations from a re-analysis of the deposited data

Results flagged for a closer look

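S100a9 stood at 0.0772 FPKM in healthy N1het XCT790 library 1 and at 0 FPKM in the other 4 libraries of that group. The value is close to the floor and lies in the deepest library of its group (24.8 M reads). It was flagged by rule as a sample apart from the rest of its group. It was 1 of 45 pairs of a gene and a group of 4 to 6 libraries examined in this way. Chance flags about 5% of such groups. The groups of 3 libraries were not examined.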

How the results depend on the processing

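In the comparison of XCT790 with solvent in stenotic valves the count of called genes stayed at 0 in each direction, and in the interaction at 0, with a pseudocount of 0.1, a minimum mean of 5 FPKM, both other scalings, both covariates, libraries under 17 M reads only, both voom models, a plain variance prior, an adjusted p under 0.1 and, chosen after seeing the data, without the 7 libraries rich in heart muscle markers. It also stayed at 0 with only the 6 compared libraries, where no interaction could be fitted. Without a filter on low values 2 genes were called higher, Serpinb2 (4.68, 2.31 and 1.04 FPKM after XCT790, all 0 after solvent) and AC157608.2, with a limma adjusted p of 0.0103 and 0.0188. Leaving out 1 library gave 0 to 2 genes called higher, 0 to 1 called lower and 0 to 2 in the interaction. These were AC097273.3, mmu-mir-32, AL589742.1 and S100a9, each listed at 0 in at least 1 library of both groups. The replicate block called 0 genes in both contrasts. Deviations of libraries with the same number had correlations of -0.09, -0.06 and 0.13, and 1 of the 3 numbers matched best with itself, so the numbers do not pair the libraries. Over the 1080 values of 55 named genes under the alternatives, 3 turned to the opposite direction, all of Notch1, at -0.13 with libraries under 17 M reads only, -0.13 without XCT790 library 2 and -0.04 without solvent library 3. With median-of-ratios scaling Notch1 was at 0.00. With any 1 library left out it lay between -0.13 and 0.24. The cause was not tested. Among 840 list medians 23 moved by more than the spread between replicates. At 8.9 to 17.7 M reads and 3 libraries a group, 50% of the simulated 8-fold differences and 26.9% of the 4-fold ones were called.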

Other observations

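Ribosomal protein genes, abundant and evenly measured, had higher values after XCT790 for 44 of 55 genes, with a small median of 0.11 close to that of all genes tested, 0.09. Genes of the amino acid stress response driven by ATF4 had higher values for 16 of 20 (median 0.19, between 0.10 and 0.30 with 1 of the 6 libraries left out). Over all genes tested 57.6% had higher values. The median of the ATF4 list was also 0.19 for XCT790 against solvent in healthy N1het valves. Cartilage-type genes had lower values for 12 of 18 (median -0.33), and the median was 0.12 without XCT790 library 1. Within that list Comp, a cartilage matrix protein, had 54.3, 128 and 96.2 FPKM after XCT790, against 81.6, 150 and 163 FPKM after solvent in stenotic valves. Panx3, a channel of bone and cartilage cells that the authors' deposited table marks, had 1.16, 1.91 and 4.58 FPKM after XCT790, against 0.0249, 0.0849 and 0.0414 FPKM after solvent. No gene of these lists was called.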
